A study of Mus musculus with 8 samples.

Results

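The transcripts described here are *Srebf1*, which encodes the transcription factor SREBP1, and 9 genes of hepatic fatty acid synthesis that are usually counted among its targets: *Fasn*, *Acaca*, *Acacb*, *Acly*, *Scd1*, *Elovl6*, *Me1*, *Thrsp* and *Pnpla3*. They were chosen by name from the deposited table of raw counts, in which all 10 symbols matched an Ensembl identifier of the GRCm38 annotation, out of 18095 genes. All 10 passed the filter on low counts, as did 14866 genes of the table. The counts came from RNA sequencing of liver from 4 male WT mice and 4 male mice that lacked INPP4B (Inpp4b-/-), a phosphatase of membrane lipids and phosphoproteins. All 8 mice ate a high-fat diet (HFD), as their dams had from before mating, and the labels give their age as 12 weeks, so that genotype is the only labelled difference between the groups. The labels name C57BL/6 as the strain background, whereas the study's methods name FVB. The question put to the libraries was whether hepatic transcripts differ with the loss of INPP4B under a HFD.

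De novo lipogenesis turns citrate exported from mitochondria into long-chain fatty acids. ATP citrate lyase (*Acly*) cleaves citrate to acetyl-CoA, the acetyl-CoA carboxylases (*Acaca* and *Acacb*) make malonyl-CoA, and fatty acid synthase (*Fasn*) builds palmitate with NADPH that malic enzyme (*Me1*) helps to supply. ELOVL6 lengthens palmitate and SCD1 introduces a double bond. SREBP1 is made as a precursor in the membrane of the endoplasmic reticulum, and only its cleaved form reaches the nucleus, so the mRNA of *Srebf1* does not measure the active protein. Insulin raises *Srebf1* mRNA in liver, and SREBP1 acts on its own gene too.

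*Acly* and *Fasn* had the highest Pearson r with *Srebf1* over the 8 libraries described below (*Thrsp* the highest rank correlation), and the sequences before the starts of both are shown with one before a start of *Srebf1* itself. They are the 250 bases before the RefSeq start on the coding strand (GRCm38.p6, 5′ to 3′), with CCAAT boxes (CCAAT or ATTGG) and GC boxes (GGGCGG or CCGCCC) in capitals. The regions are chr11:60210472-60210721 (minus strand, the third of 3 RefSeq starts of *Srebf1*, inside the gene), chr11:120824548-120824797 (minus strand, before *Fasn*) and chr11:100528001-100528250 (minus strand, before *Acly*).
Srebf1: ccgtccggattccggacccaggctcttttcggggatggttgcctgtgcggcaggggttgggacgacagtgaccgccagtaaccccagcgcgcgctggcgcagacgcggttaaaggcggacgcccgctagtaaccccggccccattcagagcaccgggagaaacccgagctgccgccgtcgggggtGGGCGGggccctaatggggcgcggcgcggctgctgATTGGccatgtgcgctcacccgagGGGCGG
Fasn: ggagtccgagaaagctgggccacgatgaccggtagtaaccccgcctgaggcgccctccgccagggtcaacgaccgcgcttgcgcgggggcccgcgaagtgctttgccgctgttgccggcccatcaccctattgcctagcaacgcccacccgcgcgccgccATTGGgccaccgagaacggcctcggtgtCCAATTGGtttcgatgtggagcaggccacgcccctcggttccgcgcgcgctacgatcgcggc
Acly: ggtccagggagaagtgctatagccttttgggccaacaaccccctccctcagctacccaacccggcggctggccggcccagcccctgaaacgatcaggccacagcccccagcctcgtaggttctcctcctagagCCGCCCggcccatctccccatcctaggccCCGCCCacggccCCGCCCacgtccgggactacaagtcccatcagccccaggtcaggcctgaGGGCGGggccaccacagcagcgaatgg

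The window of *Fasn* has CCAAT boxes that begin 90, 62 and 59 bases before the start, the latter 2 overlapping, and no GC box of these letters. That of *Acly* has 4 GC boxes, which begin 117, 88, 76 and 27 bases before the start, and no CCAAT box. *Srebf1* has both in this window, a CCAAT box 30 bases before the start and GC boxes 65 and 6 bases before it. NF-Y binds CCAAT boxes and SP1 binds GC boxes, and both are known partners of SREBP proteins. RefSeq windows were found for 9 of the 10 genes, 12 windows in all, with none for *Scd1*. The only windows of *Acaca* (chr11:84195188-84195437) and *Acacb* (chr5:114165268-114165517) lie inside the genes. For the second window of *Srebf1* and that of *Pnpla3*, the bases after the start were not found in a GENCODE transcript of the gene. Which starts are used in liver was not tested. CCAAT boxes were in 7 of the 12 windows (6 genes), against 33.8% of the 32536 windows of all genes, and GC boxes in 5 (4 genes), against 33%. The sterol regulatory element TCACNCCAC was in 0 of the 12 windows (1.04% of all), the palindromic E-box CACGTG in 0 (6.04%) and the DR4 element, which LXR binds, in 0 (0.0154%), each searched as exact letters on both strands, which says only that these letters are not in these windows. Counts per gene do not tell the starts of *Srebf1* apart.

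Depth ran from 25893430 to 31427831 counts per HFD WT library and from 32738435 to 36662531 per HFD Inpp4b-/- library, without overlap. Levels are given as CPM, counts per 1000000 of the library after scaling by edgeR's TMM factors. *Inpp4b*, the targeted gene, had 6, 20, 5 and 8 counts in HFD WT replicates 1 to 4 and 33, 10, 9 and 14 in HFD Inpp4b-/- replicates 1 to 4, so it was not lower in the libraries labelled as knockout, and every direction below rests on the labels. Hepatocyte markers were abundant. Of the 6 symbols listed, 5 matched a row and *Tf*, as written, did not. These 5 summed to between 71868 and 76852 CPM in HFD WT and between 74426 and 94607 CPM in the knockouts. Of the 8 adipocyte markers listed, 0 had a row, while the 8 leukocyte markers with a row summed to between 34.5 and 97.2 CPM in HFD WT and between 69.8 and 117 CPM in the knockouts. The 5 cholangiocyte markers summed to 23.7 to 31.6 CPM and 29.7 to 40.6 CPM, the 5 endothelial markers to 80.1 to 103 CPM and 67.7 to 106 CPM, and the 5 stellate cell markers to 136 to 186 CPM and 144 to 176 CPM, in the same order of groups. The 5 erythroid markers summed to 114 to 431 CPM and 208 to 346 CPM, and the 1 pancreatic acinar marker with a row, of 5, stayed under 1 CPM in every library. In whole liver, fewer cells of a type and less RNA per cell cannot be told apart.

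Of the 10 transcripts, 0 were called different between the genotypes, where a call needed an adjusted p under 0.10 from edgeR's quasi-likelihood test (Benjamini-Hochberg over all tested genes) and a fold change over 1.3. Among all tested genes 174, or 1.17%, were called. At an unadjusted p under 0.05 stood 1 of the 10, *Me1*, against 13.9% of all tested genes. DESeq2 also called 0 of the 10. The fitted difference was above 0 for 5 of the 10 (50.4% of tested genes) and below 0 for 5, with a median log2 fold change of 0.0084 for the 10 and 0.0027 for all tested genes. In all 10 the libraries of both genotypes overlapped, whereas 8.72% of tested genes had no overlap.

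**Figure D1:**
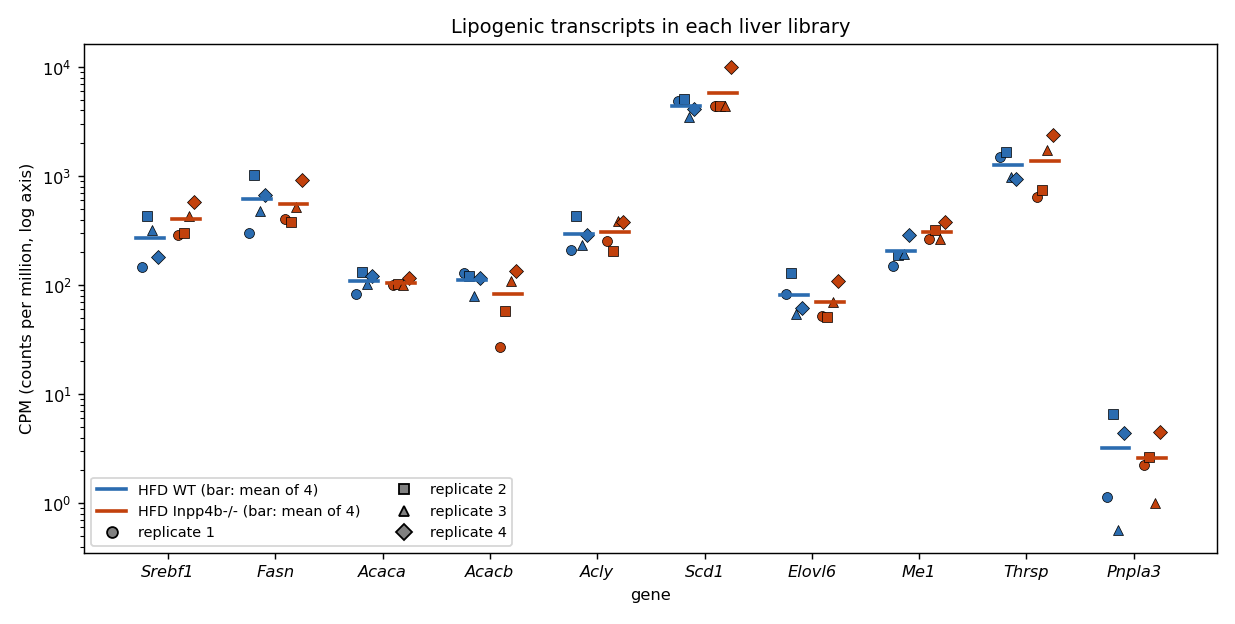
CPM on a log axis of each lipogenic gene in 4 HFD WT (blue) and 4 HFD Inpp4b-/- (orange) liver libraries, with symbols for the replicate and a bar at each group's mean. The points of both genotypes overlap for all 10 genes, and *Pnpla3* lies lowest, between 0.573 and 6.55 CPM.

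*Srebf1* (ENSMUSG00000020538, chromosome 11 from 60199089 to 60222581, minus strand) had 148, 429, 323 and 181 CPM in HFD WT replicates 1 to 4. In HFD Inpp4b-/- replicates 1 to 4 it had 291, 299.8, 433 and 583 CPM. The lowest 2 libraries were thus WT and the highest 2 were knockout, with the other 4 mixed. The log2 fold change of HFD Inpp4b-/- over HFD WT was 0.57 (SE 0.34, adjusted p = 0.492), and permuting the genotype labels in all 70 ways gave an exact two-sided p of 0.229, where the smallest possible is 0.0286. Without HFD WT replicate 2 the value was 0.88 and without HFD Inpp4b-/- replicate 4 it was 0.34, and it was not called in any of these fits. Exons of *Srebf1* share 109 bases, 1.93% of their length, with *Rai1* on the other strand.

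The enzymes that carry citrate to palmitate did not separate the genotypes. *Acly* (chromosome 11, 100476353 to 100528000) had 210.4, 435, 234 and 288 CPM in HFD WT replicates 1 to 4 and 251, 208, 385 and 383 CPM in HFD Inpp4b-/- replicates 1 to 4. The higher values came from 1 WT and 2 knockout libraries, and the log2 fold change was 0.072 (SE 0.26, adjusted p = 0.931). *Fasn* (chromosome 11, 120805846 to 120824547), the multi-step synthase, had 299.85, 1034, 478 and 668 CPM in HFD WT and 401, 379.8, 525 and 923 CPM in HFD Inpp4b-/-, in the same order. Its highest and lowest library were both WT, and its log2 fold change was -0.15 (SE 0.38, adjusted p = 0.894). *Acaca* (chromosome 11, 84129672 to 84401651), the cytosolic carboxylase, was the steadiest of the 10, with 83.1, 132, 102 and 121 CPM in HFD WT and 99.4, 103, 101 and 117 CPM in HFD Inpp4b-/-. Its difference was also the smallest in size, at a log2 fold change of -0.056 (SE 0.14, adjusted p = 0.894).

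*Acacb* (chromosome 5, 114146535 to 114250761) encodes the carboxylase at the outer mitochondrial membrane, whose malonyl-CoA restrains fatty acid import for oxidation. It had 129.6, 122, 80.1 and 115 CPM in HFD WT replicates 1 to 4 and 27.3, 58.0, 109 and 135 CPM in HFD Inpp4b-/- replicates 1 to 4. The lowest 2 libraries were knockout and so was the highest, so the 4 knockout livers spanned 4.95-fold and the 4 WT livers 1.62-fold. The log2 fold change was -0.44 (SE 0.40, adjusted p = 0.670). Single knockout libraries moved it, to -0.15 with replicate 1 left out and to -0.79 with replicate 4 left out, and it was called in neither fit.

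The enzymes that finish the fatty acid differed in how far 1 library set their mean. *Scd1* (chromosome 19, 44394455 to 44407879), the desaturase that makes oleate, had 4849, 5059.6, 3498 and 4141 CPM in HFD WT and 4370.5, 4359, 4419 and 9989 CPM in HFD Inpp4b-/-. The first 3 knockout libraries lay inside the WT range and replicate 4 was the highest of all 8, so that the knockout group spanned 2.29-fold and the WT group 1.45-fold. The log2 fold change was 0.40 (SE 0.28, adjusted p = 0.564) with all libraries and -0.00037 without HFD Inpp4b-/- replicate 4. *Elovl6* (chromosome 3, 129532355 to 129638495), the palmitate elongase, had 82.6, 128, 54.3 and 62.2 CPM in HFD WT and 52.3, 50.9, 70.6 and 109 CPM in HFD Inpp4b-/-. It was highest in WT replicate 2 and next in knockout replicate 4, with a log2 fold change of -0.21 (SE 0.31, adjusted p = 0.800), and 34 bases of its exons lie opposite *Gm35986*.

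*Me1* (chromosome 9, 86581371 to 86695953), the cytosolic malic enzyme, came nearest to a genotype difference. It had 151, 189, 193 and 287 CPM in HFD WT replicates 1 to 4 and 265, 319, 266 and 376 CPM in HFD Inpp4b-/- replicates 1 to 4. Of the 4 WT libraries, 3 lay below every knockout library, and WT replicate 4 lay among them. The means were 307 ± 52.6 CPM in HFD Inpp4b-/- and 205 ± 57.8 CPM in HFD WT (SD, n = 4 each), and the log2 fold change was 0.58 (SE 0.19). This did not pass the threshold, with an unadjusted p of 0.0133 and an adjusted p of 0.230 from edgeR and an adjusted p of 0.103 from DESeq2. The exact permutation test gave p = 0.0857 (two-sided). Without HFD WT replicate 4 the log2 fold change was 0.79 and *Me1* was called (edgeR's adjusted p = 0.0753), and over the other left-out libraries it stayed between 0.46 and 0.65.

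The remaining 2 genes do not encode enzymes of the chain. *Thrsp* (chromosome 7, 97412938 to 97417730), a small nuclear and cytosolic protein whose mRNA follows lipogenesis, had 1499, 1668, 982 and 931 CPM in HFD WT and 646, 739, 1736 and 2403 CPM in HFD Inpp4b-/-. The lowest 2 and the highest 2 libraries were all knockout, so the spread within knockout livers exceeded the distance between the groups (log2 fold change 0.12, SE 0.40, adjusted p = 0.924). *Pnpla3* (chromosome 15, 84167837 to 84187236), a lipase-family protein of lipid droplets, was scarce, with 31, 208, 17 and 116 counts in HFD WT and 81, 101, 31 and 162 counts in HFD Inpp4b-/-. Its log2 fold change was -0.28 (SE 0.69, adjusted p = 0.891), and 105 bases of its exons, 6.78%, are shared with *Gm49513* on the same strand.

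**Figure D2:**
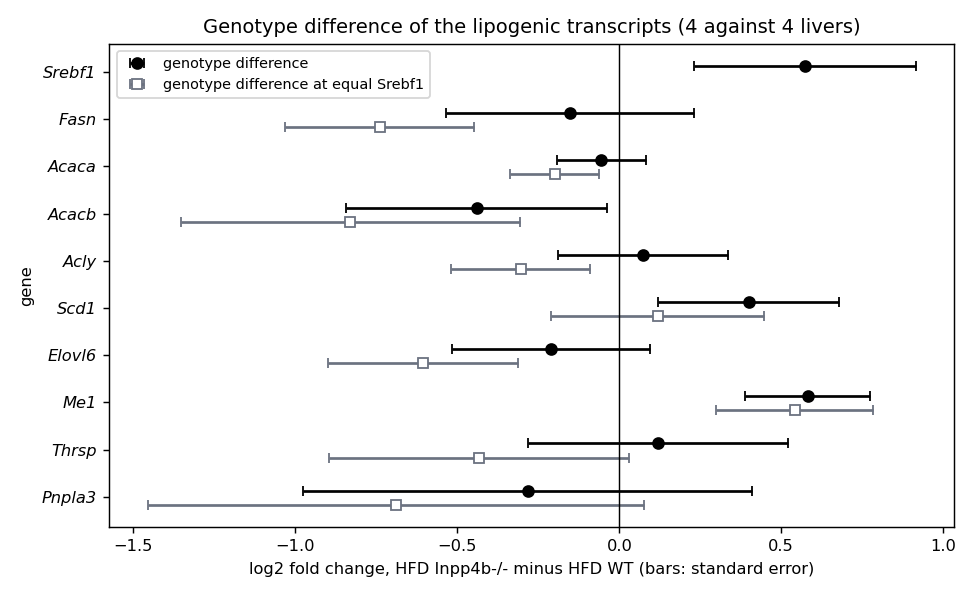
Log2 fold change of HFD Inpp4b-/- over HFD WT with its standard error, from the fit on genotype alone (black circles, 4 against 4 livers) and from the fit that also held the *Srebf1* level (open squares). Without *Srebf1* in the fit 5 values lie above 0 and 5 below, and with it *Scd1* and *Me1* alone stay above 0.

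Per kilobase of annotated exon, which allows levels of different genes to be compared, the order of the means ran from *Scd1* (1182 ± 573 CPM per kb in HFD Inpp4b-/- and 897 ± 145 in HFD WT; SD, n = 4 each) through *Thrsp* (631 ± 384 and 580.2 ± 169) to *Pnpla3* (1.69 ± 0.950 and 2.05 ± 1.82). *Me1*, *Srebf1*, *Acly* and *Fasn* were neighbours, with means between 48.0 and 79.7 CPM per kb in either genotype, and did not differ from each other beyond their spread in HFD WT. *Elovl6*, *Acacb* and *Acaca* lay between 6.17 and 12.7 CPM per kb. The 10 genes took from 0.594% to 1.502% of a library's counts.

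What set these genes apart from most others was their spread between livers of the same genotype. The SD of log2 CPM within genotype had a median of 0.568 for the 10 and 0.263 for all tested genes. Against genes of like level (mean log2 CPM within 0.5), all 10 were variable: from 78.1% (*Acaca*) to 98.6% (*Acacb*) of such genes had a smaller SD. *Pnpla3* was the most variable, with an SD of 1.28 and an 11.4-fold range over the 8 libraries, and *Acaca* the least, with 0.22 and a 1.59-fold range. HFD Inpp4b-/- replicate 4 was the highest library for 5 genes and HFD WT replicate 2 for the other 5. HFD WT replicate 1 was lowest for 4 genes, HFD Inpp4b-/- replicates 1 and 2 and HFD WT replicate 3 for 2 each. The livers with most lipogenic mRNA thus came from both genotypes.

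The levels of the other 9 genes were next compared with *Srebf1* over the 8 libraries, on log2 CPM. In order of *Srebf1*, from highest to lowest, the libraries were HFD Inpp4b-/- replicates 4 and 3, HFD WT replicates 2 and 3, HFD Inpp4b-/- replicates 2 and 1, and HFD WT replicates 4 and 1. All 9 genes had a positive Pearson r with *Srebf1*, against 52.2% of all other tested genes, and the median r was 0.475 against 0.036. None of the 9 had an exact permutation p under 0.05 (40320 pairings, two-sided), against 12.6% of all tested genes in either direction and 6.51% in the positive one, and over all tested genes 0 reached an adjusted p under 0.10, the smallest being 0.293. These p-values measure the spread between 8 livers, and the 9 genes are not replicates of each other.

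By Pearson r, *Acly* and *Fasn* followed *Srebf1* most closely. For *Acly* r was 0.70 (exact permutation p = 0.0593, adjusted p = 0.419) and Spearman's rho was 0.62 (exact permutation p = 0.115). For *Fasn* r was 0.64 (exact permutation p = 0.0900, adjusted p = 0.462) and rho was 0.64 (exact permutation p = 0.0962). *Scd1* (0.52, exact permutation p = 0.202), *Acaca* (0.51, 0.195), *Me1* (0.48, 0.234), *Thrsp* (0.46, 0.247) and *Elovl6* (0.39, 0.329) formed a middle group. *Pnpla3* (0.22, exact permutation p = 0.586) and *Acacb* (0.057, 0.908) followed it least. Spearman's rho was 0.69 for *Thrsp* and between 0.19 and 0.43 for the remaining 6.

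The pooled relation rested in part on the libraries with the lowest and the highest *Srebf1*. Without HFD WT replicate 1 and HFD Inpp4b-/- replicate 4, the 2 farthest from the median *Srebf1* level of 311 CPM, r was 0.64 for *Thrsp*, 0.52 for *Acly*, 0.51 for *Elovl6*, 0.38 for *Scd1*, 0.19 for *Fasn*, 0.14 for *Acacb*, -0.065 for *Acaca*, -0.24 for *Pnpla3* and -0.48 for *Me1*. For *Fasn*, *Acaca*, *Pnpla3* and *Me1*, r with *Srebf1* thus fell to 0.19 or below among the 6 middle livers. These livers span a narrower range of *Srebf1*, so they cannot show whether a relation is absent. Single libraries also decided the count below 0.05: without HFD WT replicate 4, *Fasn* (r 0.84, exact permutation p = 0.00833), *Acly* (0.79, 0.0230) and *Acaca* (0.82, 0.0312) were below it, and without HFD WT replicate 1, *Thrsp* was (0.79, 0.0292). Sequencing depth also moved with *Srebf1* (log2 total counts, r 0.70, exact permutation p = 0.0556, rho 0.62, exact permutation p = 0.115, and r 0.43 without the 2 totals farthest from their median) but less with the mean of the other 9 (r 0.15, exact permutation p = 0.713, rho 0.12). CPM are already scaled for depth, and the part of depth in the relation was not tested. The mean log2 CPM of the other cells' markers had r with *Srebf1* from -0.57 for the endothelial to 0.56 for the cholangiocyte list, as a description over the 8 libraries, and their part was not tested either.

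**Figure D3:**
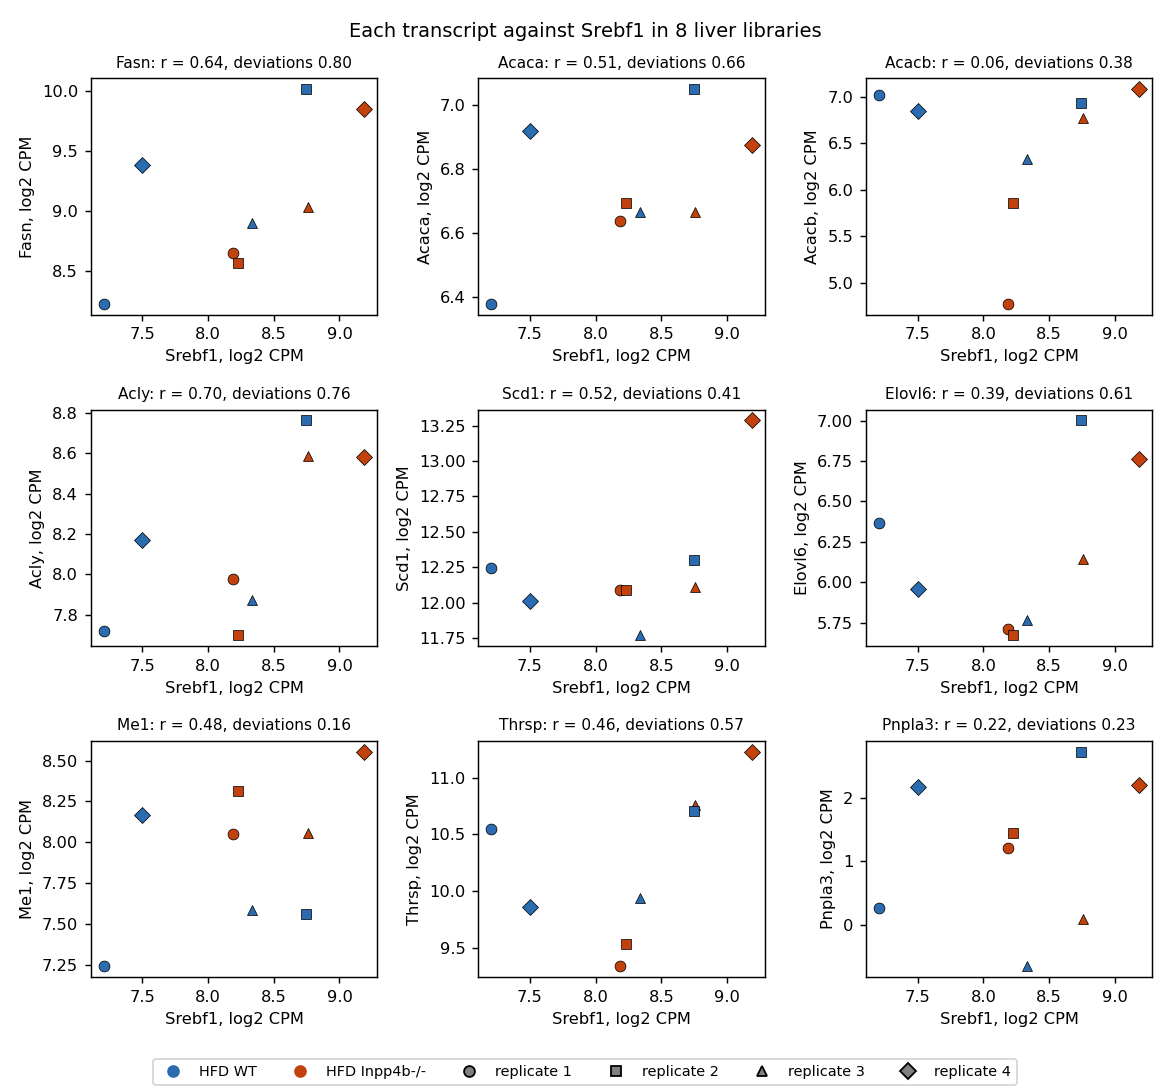
Log2 CPM of each of the 9 genes (vertical axes) against log2 CPM of *Srebf1* (horizontal axes) in the 8 libraries, coloured by genotype with symbols for the replicate. Panel titles give Pearson r over all 8 and r of the deviations from the genotype means, and r runs from 0.057 for *Acacb* to 0.70 for *Acly*.

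Removal of each genotype's mean raised r for 7 of the 9 genes and lowered it for *Scd1* and *Me1*. All 9 correlations of these deviations, which pool both genotypes, were again positive (51.0% of all other tested genes), and the median r was 0.569 against 0.013. The r of deviations was 0.80 for *Fasn* (exact permutation within genotypes, p = 0.0434), 0.76 for *Acly* (exact permutation p = 0.0521), 0.66 for *Acaca* (0.186), 0.61 for *Elovl6* (0.153) and 0.57 for *Thrsp* (0.0833). *Fasn* was the 1 of 9 with p under 0.05, where 3.94% of all tested genes had a positive r with such a p. An r of deviations over 0.7 was found for 2 of 9, *Fasn* and *Acly*, and for 7.12% of all tested genes. *Scd1* (0.41), *Acacb* (0.38), *Pnpla3* (0.23) and *Me1* (0.16) were looser. For *Me1* the pooled r of 0.48 thus fell to 0.16 once the genotype means were removed.

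An edgeR fit on counts with genotype as a term gave 1 slope on *Srebf1* shared by both genotypes, in log2 units of each gene per log2 unit of *Srebf1*. The slope was positive for all 9 genes, and 0 of them had an adjusted p under 0.10, as was the case for 0% of the 14865 other tested genes. The largest was that of *Fasn*, 0.89 (SE 0.23, unadjusted p = 0.00355, adjusted p = 0.281). As fitted, a doubling of *Srebf1* went with close to a doubling of *Fasn*, but the slope was not called. It was 0.58 (SE 0.24) without the genotype term. *Acly* had a slope of 0.58 (SE 0.17, unadjusted p = 0.00752, adjusted p = 0.316) and *Elovl6* of 0.55 (SE 0.22, unadjusted p = 0.0332, adjusted p = 0.461). These 3 of 9 were under an unadjusted p of 0.05, against 10.1% of all tested genes in either direction and 5.5% with a positive slope. Single libraries decided this count: it was 1 (*Fasn*) without HFD WT replicate 2 and 5 without HFD WT replicate 1 or 3, and *Fasn* was under 0.05 each time a library was left out. The slope of *Elovl6* was 0.33 without HFD WT replicate 2 and 0.86 without HFD WT replicate 1. *Thrsp* had a slope of 0.63 (SE 0.33), which was 1.16 without HFD WT replicate 1 and 0.38 without HFD Inpp4b-/- replicate 4. *Pnpla3* (0.70, SE 0.60), *Acacb* (0.42, SE 0.37) and *Scd1* (0.34, SE 0.24) had slopes with wide errors, *Acaca* a shallow one (0.23, SE 0.11) and *Me1* the smallest (0.056, SE 0.19). Without the genotype term 0 of the 9 were called, against 0.639% of all tested genes.

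A further fit, chosen after the values were seen, gave each genotype a slope of its own and tested the difference of the slopes. The slope was steeper in HFD Inpp4b-/- for 7 of the 9 genes, against 50.4% of all tested genes. The difference passed an adjusted p of 0.10 for 0 of the 9, against 0.00673% of all tested genes, and an unadjusted p of 0.05 for 3, against 9.07%. *Thrsp* had a slope of 1.92 (SE 0.36) in HFD Inpp4b-/- and 0.12 (SE 0.22) in HFD WT, which differed by 1.80 (SE 0.42, unadjusted p = 0.00265, adjusted p = 0.268). *Acacb* had a slope of 1.86 (SE 0.43) in HFD Inpp4b-/- and -0.15 (SE 0.26) in HFD WT, which differed by 2.01 (SE 0.50, unadjusted p = 0.00391, adjusted p = 0.299). *Scd1* had 1.08 (SE 0.30) and -0.0079 (SE 0.21), a difference of 1.09 (SE 0.37, unadjusted p = 0.0178, adjusted p = 0.441), and its knockout slope includes replicate 4, which stood apart. The slopes of these 3 genes thus lay near 0 in the 4 WT livers and above 1 in the 4 knockout livers. HFD WT replicate 1 weighs on the WT slopes. It had the lowest *Srebf1* (148 CPM), yet the highest *Acacb* of the WT livers (129.6 CPM) and high *Thrsp* (1499 CPM) and *Scd1* (4849 CPM). The slopes per genotype were not refitted with a library left out, so a contrast set by single libraries cannot be told from one of genotype. *Fasn* had 1.20 (SE 0.40) in HFD Inpp4b-/- and 0.74 (SE 0.28) in HFD WT, and *Acly* 0.83 (SE 0.31) and 0.47 (SE 0.20), positive in both genotypes.

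The fit with 1 shared slope also gave the genotype difference at an equal level of *Srebf1*. It was negative for 7 of the 9 genes and was called for 0 of them, against 0.538% of all tested genes. The fitted level of *Srebf1* was higher in the knockouts, though not called (log2 fold change 0.57, adjusted p = 0.492). All 9 shared slopes were positive. Holding *Srebf1* equal therefore lowered every fitted difference, so the count of negative values carries no weight of its own. The shared slope was also used for *Thrsp*, *Acacb* and *Scd1*, whose fitted slopes lay apart between the genotypes. *Fasn* had a log2 fold change of -0.74 (SE 0.29, unadjusted p = 0.0317, adjusted p = 0.422) and *Elovl6* of -0.61 (SE 0.29, unadjusted p = 0.0692, adjusted p = 0.522). *Fasn* was the 1 of 9 with an unadjusted p under 0.05, against 10.4% of all tested genes. *Me1* stood opposite, at 0.54 (SE 0.24, unadjusted p = 0.0518, adjusted p = 0.482), close to its value of 0.58 without *Srebf1* in the fit. *Srebf1* itself is measured with error, and its group means differ in these libraries, though the difference was not called.

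The 10 genes also moved with one another, and fell into overlapping groups. Of their 45 pairs, 44 had a positive r of deviations from the genotype means, with a median of 0.562, while over all pairs of tested genes 49.9% were positive, 11% were above 0.562 and the median was -0.0005. These r are descriptions over 8 shared libraries, and the pairs are not independent. Over the 8 libraries, without removal of the genotype means, 10 of the 45 pairs had an exact permutation p under 0.05. The share over all pairs of tested genes was not computed. The close pairs named below were picked from the 45 for their high r, and their p-values are not adjusted. *Fasn* moved most closely with *Acaca* (r 0.92, exact permutation p = 0.00126, rho 0.81) and *Acly* (r 0.87, exact permutation p = 0.00727, rho 0.88), and r was 0.90 and 0.68 without the 2 libraries farthest from the median of *Fasn*. *Elovl6* with *Thrsp* (r 0.85, exact permutation p = 0.00848, rho 0.83) and *Acacb* with *Thrsp* (r 0.81, exact permutation p = 0.00474, rho 0.79) formed another group, with 0.88 and 0.66 without the 2 farthest. *Acacb* had an r of 0.057 with *Srebf1* and 0.25 with *Acaca*, its paralog, over the 8 libraries (0.38 and 0.23 in deviations), and the r with *Acaca* was 0.66 without the 2 libraries farthest from the median of *Acaca*. *Me1* had the lowest median r of deviations with the others, 0.253, and an r of deviations of -0.0064 with *Thrsp* and 0.0082 with *Elovl6*.

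**Figure D4:**
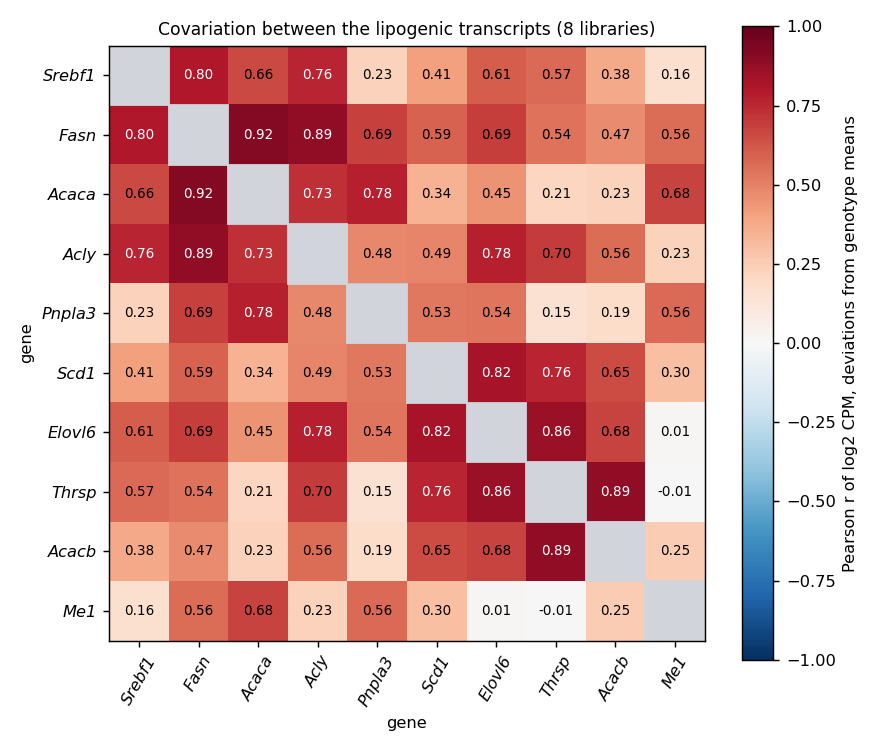
Pearson r of log2 CPM between each pair of the 10 genes after removal of the genotype means, over 8 libraries, from -1 (blue) to 1 (red), with the diagonal in grey. *Fasn* with *Acaca* (0.92) and *Acacb* with *Thrsp* (0.89) are high, and the row of *Me1* is palest.

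Genes outside the group whose level was most like *Srebf1* were sought among 10571 named protein-coding genes whose mean over libraries reached 50 counts. The highest r over 8 libraries were those of *Ttc23* (0.97), *Rmdn1* (0.97), *Izumo4* (0.96), *Hfe2* (0.96), *Slc47a1* (0.96) and *Rbmx* (0.96), and the lowest those of *Aebp2* (-0.97), *Farp1* (-0.97) and *Gfpt1* (-0.97). Each had an exact permutation p between 0.000223 and 0.000546 and an adjusted p of 0.293, so none passed over all tested genes. The highest r among the 9 lipogenic genes was 0.70. *Hfe2* encodes hemojuvelin, a regulator of hepcidin, and *Slc47a1* a transporter that exports cations into bile. The genes closest to the mean of the other 9 were *Ehd1* (r 0.95), *Cnst* (0.94), *Anks1* (0.93), *Fhl1* (0.93) and *Pfdn4* (0.92), and their r with *Srebf1* ran from 0.48 for *Fhl1* to 0.73 for *Pfdn4*.

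Genes that control SREBP1 were compared next. Of 20 genes for SREBP processing and upstream control, 0 were called between the genotypes (1.17% of all tested genes were). Of these, 10 were above 0 and 10 below, with a median log2 fold change of -0.0015. *Mbtps2*, the site-2 protease that frees the active fragment, had 8.39 ± 0.655 CPM in HFD Inpp4b-/- and 11.6 ± 0.916 CPM in HFD WT (SD, n = 4 each), without overlap of the groups (8.72% of all tested genes had none). Its log2 fold change of -0.47 (SE 0.12) had an adjusted p of 0.137. *Insig2*, which holds the precursor in the endoplasmic reticulum, was at 0.49 (SE 0.18, adjusted p = 0.276). With *Srebf1* over libraries, 9 of the 20 genes for processing and upstream control had a positive r, against 52.2% of all other tested genes. The 15 tested regulators and paralogs of the enzymes gave 0 calls, 12 above 0 (50.4% of all tested genes were) and 3 below. *Acsf3* was at 0.30 (SE 0.12, adjusted p = 0.295) and *Abhd5*, the activator of adipose triglyceride lipase, at -0.41 (SE 0.16, adjusted p = 0.2995).

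The genes that bring carbon and NADPH to lipogenesis were compared in the same way. Of 19 tested, 0 were called (1.17% of all tested genes were). Above 0 were 16 (50.4% of all tested genes were) and below it 3, with a median log2 fold change of 0.18. A positive r with *Srebf1* was found for 17 (52.2% of all other tested genes), with a median r of 0.408 against 0.036. The mitochondrial pyruvate carrier subunits had the smallest p of the 19, *Mpc1* at 0.49 (SE 0.13, adjusted p = 0.156) and *Mpc2* at 0.25 (SE 0.078, adjusted p = 0.208). For both, the 4 knockout libraries lay above the 4 WT ones, where 8.72% of all tested genes had no overlap of the groups. *Khk*, *Mid1ip1* and *Irs2* are named after their values were seen. *Khk*, the first enzyme of fructose use, had 409, 573, 463 and 395 CPM in HFD WT replicates 1 to 4 and 509.5, 548, 608 and 754 CPM in HFD Inpp4b-/- replicates 1 to 4, and followed *Srebf1* with r 0.93 (exact permutation p = 0.00117, adjusted p = 0.293, rho 0.90, and r 0.90 without the 2 farthest libraries). This r was higher than that of any of the 9 lipogenic genes.

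*Mid1ip1*, the paralog of *Thrsp* whose protein promotes assembly of acetyl-CoA carboxylase into filaments, had 23.6, 71.7, 60.9 and 39.2 CPM in HFD WT and 35.6, 47.1, 59.0 and 84.3 CPM in HFD Inpp4b-/-. Its r with *Srebf1* was 0.92 (exact permutation p = 0.00122, adjusted p = 0.293, rho 0.90, and 0.76 without the 2 farthest libraries), where that of *Thrsp* was 0.46. *Irs2*, an insulin receptor substrate that SREBP1 is known to repress, ran the other way, with 29.4, 13.2, 17.01 and 30.2 CPM in HFD WT and 22.4, 20.998, 18.9 and 13.1 CPM in HFD Inpp4b-/-. Its r was -0.93 (exact permutation p = 0.00288, adjusted p = 0.293, rho -0.90, and -0.88 without the 2 farthest libraries), and -0.97 after removal of the genotype means. The liver with the most *Srebf1* had the least *Irs2*.

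Other elongases, desaturases and their partners held 1 call in 14 tested genes, against 1.17% of all tested genes. *Tecr*, the reductase that completes each elongation cycle, was higher in HFD Inpp4b-/- (291, 277, 347 and 380.2 CPM in replicates 1 to 4) than in HFD WT (214, 197, 202 and 204 CPM). The groups did not overlap, as for 8.72% of all tested genes. Its log2 fold change was 0.67 (SE 0.11, adjusted p = 0.0337). In the 22 genes of cholesterol synthesis, controlled mainly by SREBP2, 0 were called, 8 were above 0 and 14 below, with *Hsd17b7* at 0.29 (SE 0.16, adjusted p = 0.463). Their median r with *Srebf1* was 0.201.

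Feeding state and time of day also move *Srebf1*, and neither is given for single mice in the labels. Of 14 fasting-responsive genes, 5 were above 0 and 9 below. With *Srebf1*, 5 had a positive r (52.2% of all other tested genes did), and the median was -0.369 against 0.036. The mean log2 CPM of the 14 had an r of -0.91 with *Srebf1*, and -0.88 after removal of the genotype means, as a description over the libraries. Of 14 tested circadian genes 0 were called (1.17% of all tested genes were), with 7 above 0 and 7 below. *Per1* was at -0.97 (SE 0.24, adjusted p = 0.137) and *Dbp* at 0.35 (SE 0.13, adjusted p = 0.268), and 8 of 14 had a positive r with *Srebf1* (median 0.154). The part of feeding state or hour in the spread of the lipogenic genes was not tested.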

How the data were processed

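RNA-seq libraries of liver from 4 HFD WT and 4 HFD Inpp4b-/- mice were analysed. The authors aligned the reads to GRCm38 with HISAT2 and counted them per gene with HTSeq, and the deposited counts were used as they stand. The deposited normalized signal, counts divided by a size factor per library, gave no further information and was not tested. Strand setting and annotation release of the counting are not given in the sources used here, so overlapping genes may share reads.

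Symbols, positions and exon lengths came from GENCODE M21, and the windows before gene starts from RefSeq (GRCm38.p6). Counts were fitted over all genes with edgeR 4.0.16 (TMM, filterByExpr, estimateDisp, glmQLFit, glmQLFTest) in R 4.3.3, with Benjamini-Hochberg adjustment over all tested genes and the study's limits (adjusted p below 0.10, change above 1.3-fold). Correlations used log2 CPM (prior count 2) and two-sided exact permutation tests, over 40320 pairings or 576 within genotypes (numpy 2.4.6). DESeq2 1.42.0, other scalings, filters and thresholds, the replicate number as a block and omission of each library in turn were alternatives. Each library has a number of its own in the labels and the study's methods give 4 per group, read here as 4 separate mice. A slope for each genotype was added after the values were seen. The fits were tested on simulated counts.

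All 10 lipogenic genes are named. From each other list the called genes, or the 2 with the smallest p, are named, except for some results that are not reported here, as are the 6 highest and 3 lowest r with *Srebf1* and the 5 highest r with the mean of the other 9. The members and lists were chosen with earlier results of these data known. *Khk*, *Mid1ip1* and *Irs2* were added after their values were seen. Same-numbered libraries of both genotypes did not deviate together (r from -0.170 to -0.010), so the numbers were not taken as pairs.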

Additional observations from a re-analysis of the deposited data

Results flagged for a closer look

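*Scd1* in HFD Inpp4b-/- replicate 4 stood apart from its group, with 9989 CPM against 4359 to 4419 CPM in the other 3 libraries. The gap was 0.989 of the group's range, above Dixon's 95% limit for 4 samples. Of 20 groups examined (10 genes in each genotype) this was the 1 so marked, and chance marks about 1 in 20. The same library was the highest of the 8 for 5 of the 10 lipogenic genes.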

How the results depend on the processing

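With 4 livers a group, differences well above their standard errors went uncalled, as for *Me1* at 0.58 (SE 0.19, edgeR's adjusted p = 0.230). The absence of calls therefore does not show that the lipogenic transcripts are unchanged. The count of lipogenic genes called between genotypes stayed at 0 under DESeq2, other scalings, filters and thresholds and with a replicate block, and ran from 0 to 1 when a library was left out, the 1 being *Me1* without HFD WT replicate 4. Over all tested genes the genotype calls moved from 174 to 688 under DESeq2, to 71 at an adjusted p under 0.05, to 26 with the replicate block and to between 53 and 345 when a library was left out, the extremes being replicate 2 of HFD Inpp4b-/- (53) and of HFD WT (345). The count of lipogenic genes called for the slope on *Srebf1*, or for the genotype difference at equal *Srebf1*, was 0 in each alternative run. Over all tested genes the calls for the slope moved from 0 to 95 without the genotype term, to 41 for the slope in HFD WT, and to 4 and 187 without replicate 1 of HFD Inpp4b-/- and of HFD WT. Those for the difference at equal *Srebf1* moved from 80 to 16 with the replicate block, to 38 with 10 counts in every library and to between 14 and 165 when a library was left out. The count with an exact permutation p under 0.05 against *Srebf1* was 1 for deviations from the genotype means and ran from 0 to 3 when a library was left out.

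Several values changed sign, some of them far from 0, and the cause was not tested. With the replicate block, which may not reflect real pairs, the genotype difference was -0.055 for *Thrsp* and 0.080 for *Pnpla3*, the slope of *Me1* was -0.12, the difference of *Scd1* at equal *Srebf1* was -0.047 and the r of *Me1* was -0.52. In HFD WT alone, a fit added after the values were seen, the slope was -0.15 for *Acacb*, -0.0079 for *Scd1* and -0.072 for *Me1*. Without the 2 libraries farthest from the median *Srebf1*, r was -0.065 for *Acaca*, -0.48 for *Me1* and -0.24 for *Pnpla3*. When a library was left out, the genotype difference ranged from -0.055 to 0.32 for *Acly*, -0.29 to 0.36 for *Thrsp*, -0.00037 to 0.51 for *Scd1*, -0.51 to 0.20 for *Fasn*, -0.17 to 0.040 for *Acaca*, -0.50 to 0.079 for *Elovl6* and -0.69 to 0.35 for *Pnpla3*. The slope ranged from -0.0032 to 0.59 for *Scd1*, -0.13 to 0.26 for *Me1* and -0.077 to 1.16 for *Pnpla3*. The difference at equal *Srebf1* ranged from -0.13 to 0.25 for *Scd1* and from -1.21 to 0.44 for *Pnpla3*. The r with *Srebf1* ranged from -0.16 to 0.34 for *Acacb* and from -0.025 to 0.69 for *Scd1*.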
